A study of Saccharina japonica with 2 samples.

Results

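The AT-rich unigenes of the kelp Saccharina japonica are described here in thalli exposed to blue light (BL) and in thalli left in darkness. A unigene is a non-redundant sequence assembled from the reads of both libraries. A unigene was counted as AT-rich when at most 40% of its bases were G or C, and it had to have at least 50 uniquely aligned reads over both libraries. Of the 34834 unigenes with that many reads, 723 (2.08%) were AT-rich. Of these, 132 had up to 35% GC and 591 had above 35% to 40% GC. The choice used GC content and the summed reads, and neither the BL nor the dark count by itself. The sum was mostly made of dark reads, 347013 of 443006, so members could pass on dark reads alone. Unigene35654, for example, had 2 reads in BL and 290 in the dark. The median log2 ratio of BL over dark, defined below, depended on this threshold. It was -1.53 with at least 50 reads, -1.11 with at least 10 and -1.66 with at least 200. A further filter was not applied, so every value below refers to these 723 unigenes unless a smaller number is given. The threshold of 50 reads left out most AT-rich sequences, since 2461 unigenes of at most 40% GC had a read and 29.4% of them passed.

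The study asked which transcripts respond to BL in this brown alga. Vegetative tissue of sporophytes, for which no strain or genotype is given, was kept in the dark for 4 h and then immersed in seawater for 2 h, either under BL or in continued darkness. The labels call the samples mature thalli and the study's text calls the plants juvenile. RNA of several individuals was pooled, polyadenylated RNA was selected with oligo(dT) beads, and 1 library was sequenced per treatment, so no difference below has a replicate check and each test compares 2 libraries, not 2 treatments. The BL library held 11410538 uniquely aligned reads and the dark library 10905306. In pooled tissue, fewer cells of a type and less RNA per cell cannot be told apart.

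In brown algae, the genomes of the plastid and of the mitochondrion are poorer in G and C than most nuclear genes. The plastid genome of these algae encodes, among others, subunits of a bacterial-type RNA polymerase, many ribosomal proteins, the elongation factor EF-Tu, subunits of the ATP synthase and proteins that build chlorophyll and cytochromes, while the mitochondrial genome encodes subunits of the NADH dehydrogenase and further ribosomal proteins. Untranslated parts of nuclear transcripts can be AT-rich as well. From which genome each unigene came was not tested, because neither its sequence nor a genome was used here.

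AT-rich unigenes held far fewer reads in the BL library. They took 95993 reads in BL and 347013 reads in the dark. The share of all reads was 0.841% in BL (exact 95% interval 0.836% to 0.847%) and 3.18% in the dark (3.17% to 3.19%), a 3.78-fold lower share in BL. Intervals cover counting error only, and reads are not independent molecules. The difference was larger for the AT-richest sequences. Unigenes of up to 35% GC had 36501 reads in BL and 205210 in the dark, which is 0.32% and 1.88% of the libraries and a 5.88-fold lower share in BL. Those above 35% to 40% GC had 59492 reads in BL and 141803 in the dark, a 2.49-fold lower share in BL.

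The level of single unigenes was compared as RPKM, the reads per kilobase of unigene scaled to the uniquely aligned reads of the library. The median AT-rich unigene had 7.97 RPKM in BL and 18.3 RPKM in the dark, whereas the median unigene above 40% GC had 15.3 RPKM in BL and 13.0 in the dark. Of the 718 AT-rich unigenes with reads in both libraries, 600 (83.6%) had the lower RPKM in BL. Their median log2 ratio of BL over dark RPKM was -1.53, with quartiles of -2.37 and -0.45, beside a median of 0.07 over all unigenes with at least 50 reads. A unigene was called higher or lower when its RPKM differed at least by 1 on the log2 scale with a P value up to 0.05 and an FDR up to 0.001, by the Audic-Claverie test with Benjamini-Hochberg adjustment over all 70288 unigenes with a read. Among the AT-rich unigenes 431 (59.6%) were called lower in BL, against 19.2% of all unigenes with at least 50 reads. Called higher were 42 (5.81%), against 30.4% of all. The other 250 passed in neither direction. With at least 500 bp, 177 of 256 AT-rich unigenes (69.1%) were called lower, where 17.6% of all unigenes of that length were, and 17 (6.64%) were called higher, where 33.3% were.

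These counts depend on the spread that is allowed for between libraries of 1 treatment. Where edgeR's exact test was given an assumed biological coefficient of variation of 0.2, 256 AT-rich unigenes (35.4%) were called lower and 15 higher, beside 6.30% and 18.7% of all unigenes with at least 50 reads. With 0.4, 12 (1.66%) were called lower and 2 higher, beside 0.373% and 2.41%. Scaling the libraries by TMM factors or by median-of-ratios size factors shifted every log2 ratio by -0.29 or -0.42. Calls over all unigenes with at least 50 reads, which were 10598 higher and 6695 lower by total reads, became 8968 and 9370 with TMM factors and 8227 and 10722 with size factors. Each scaling shifts all unigenes alike, so the AT-rich median stays 1.61 below the median of all those unigenes by construction.

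Among the AT-rich unigenes themselves, the ratio was lowest where GC content was lowest. All 46 unigenes of up to 30% GC had the lower RPKM in BL, with a median log2 ratio of -3.26, and 44 of them were called lower. Their median RPKM was 5.14 in BL and 50.5 in the dark. The 86 unigenes above 30% to 35% GC had a median log2 ratio of -1.85, and 61 were called lower and 4 higher. Above 35% to 38% GC the median was -1.37, and above 38% to 40% it was -1.26. Taken as the 2 main classes, unigenes of up to 35% GC had a median of -2.41 with 105 of 132 called lower (79.5%) and 4 called higher, while those above 35% to 40% GC had -1.30 with 326 of 591 called lower (55.2%) and 38 called higher. Spearman's rho between GC content and log2 ratio was 0.45 over the 131 unigenes of up to 35% GC with reads in both libraries and 0.03 over the 587 above 35% to 40% GC, as a description of sequences that share the same 2 libraries.

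**Figure D1:**
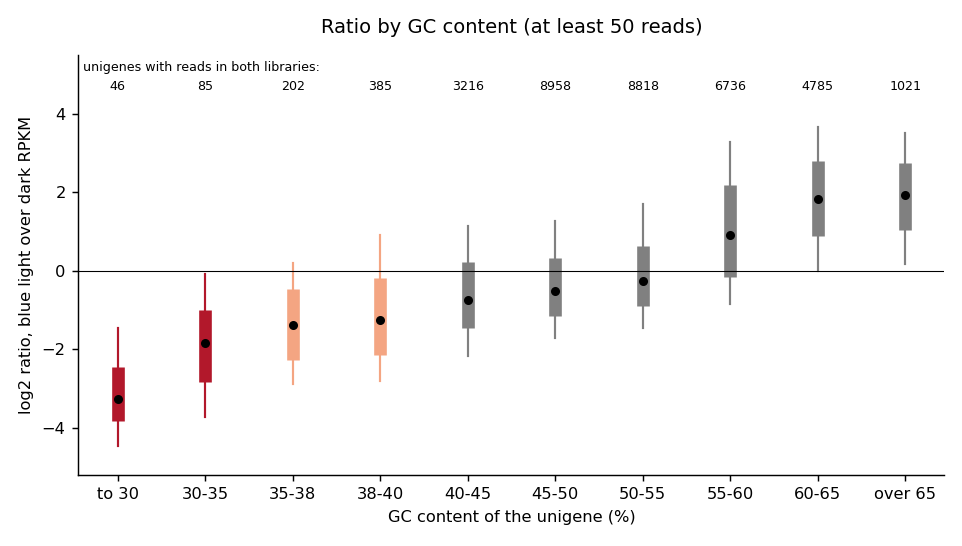
Log2 ratio of BL over dark RPKM (y axis) by class of GC content (x axis, %) for unigenes with at least 50 reads. Points are medians, thick bars quartiles and thin lines the 10th to 90th percentile; red marks up to 35% GC, orange above 35% to 40% and grey the rest. The median is -3.26 up to 30% GC, -0.74 above 40% to 45% and 1.93 above 65%.

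The medians went on increasing beyond 40% GC. The median log2 ratio was -0.74 for the 3230 unigenes above 40% to 45% GC, -0.52 above 45% to 50%, -0.26 above 50% to 55%, 0.91 above 55% to 60%, 1.84 above 60% to 65% and 1.93 above that. Over all 34252 unigenes with at least 50 reads and reads in both libraries, rho was 0.53. The mean GC content of the unigenes, weighted by their reads, was 54.2% in the BL library and 51.1% in the dark library, and without the AT-rich unigenes it was 54.3% and 51.7%. The AT-rich unigenes were thus the low end of a difference in base composition that ran through all classes, and its part in each ratio was not tested.

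Just inside 40% GC, Unigene17029 had 51 reads in BL and 333 in the dark, Unigene49536 had 123 and 296, and Unigene52720 had 47 and 416, so that all 3 had the lower count in BL. Just outside it, Unigene22840 had 176 reads in BL and 149 in the dark, and its small positive log2 ratio of 0.17 turned to -0.11 with TMM factors. Unigene12847 had 55 reads in BL and 31 in the dark, and Unigene19694 had 115 and 42. Just inside 35% GC, Unigene15242 had 50 reads in BL and 342 in the dark, Unigene32024 had 26 and 63, and Unigene17469 had 92 and 115. Just outside it, Unigene5471 had 361 reads in BL and 1029 in the dark and Unigene29679 had 6 and 66, and the third, Unigene10553, had 21 and 33.

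A few AT-rich unigenes were among the most abundant sequences of the dark library. Of the 100 unigenes with most reads there, 16 were AT-rich and 13 of these had up to 35% GC, whereas none of the 100 with most reads in BL was AT-rich. The 10 most-read AT-rich unigenes held 22.1% of the AT-rich reads in BL and 36.3% in the dark, and 50% of the AT-rich reads lay on 33 unigenes in BL and on 18 in the dark. Each of the 10 had the lower count in BL and was called lower.

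Unigene70233 (829 bp, 28.4% GC, no annotation at hand) had 2547 reads in BL and 23957 in the dark. It was the most-read unigene of the whole dark library and stood at rank 526 in BL. Its RPKM was 269 in BL and 2650 in the dark, a log2 ratio of -3.30 (95% interval -3.36 to -3.24). Unigene10115 (1206 bp, 31.3% GC), annotated as the alpha chain of RNA polymerase, had 3501 reads in BL and 22371 in the dark, where it was second. Unigene5191 (386 bp, 39.1% GC) had 1133 reads in BL and 14231 in the dark, and Unigene63931 (303 bp, 27.7% GC) had 970 and 12087. These 2 short sequences had the highest dark RPKM of the 10, 257 in BL against 3381 in the dark for Unigene5191 and 281 against 3658 for Unigene63931, and log2 ratios of -3.72 and -3.70.

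Unigene11699, described below with the ribosomal proteins, had a log2 ratio of -3.08. Unigene67062 (376 bp) had 2594 reads in BL and 11443 in the dark, with a log2 ratio of -2.21. Unigene31035 (872 bp) had 2081 and 9094, with -2.19, and Unigene21434, at 4310 bp the longest of all AT-rich unigenes, had 1344 and 8652, with -2.75. The smallest differences of the 10 were those of Unigene74 (3840 bp, 2746 reads in BL and 7875 in the dark, -1.59) and of Unigene6414 (437 bp, 3203 and 7188, -1.23). A spread of ratios of this size, between intervals that are each narrower than 0.2 on the log2 scale, exceeded counting error.

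**Figure D2:**
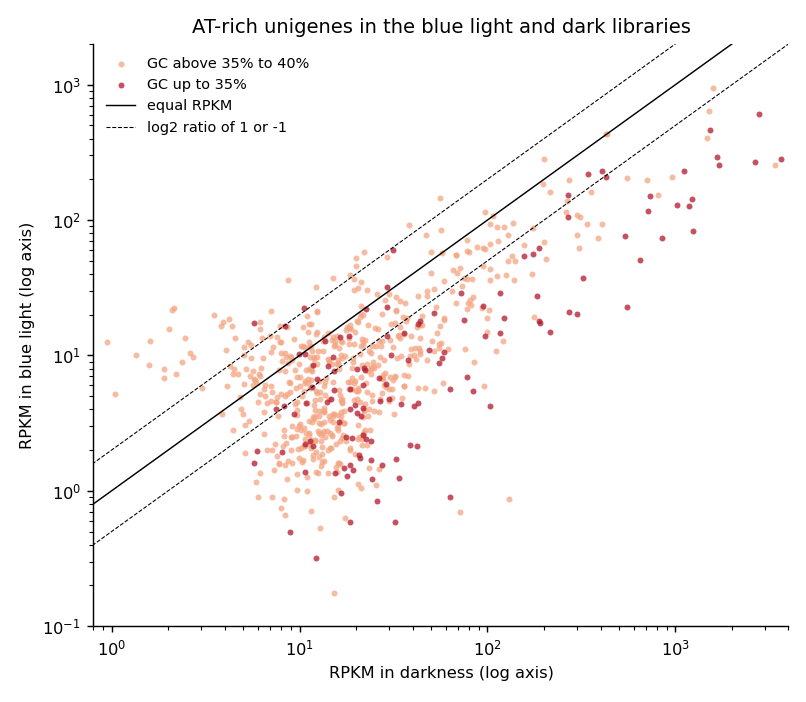
RPKM in BL (y axis) against RPKM in the dark (x axis), both on log axes, for the 718 AT-rich unigenes with reads in both libraries. The solid line marks equal RPKM and the dashed lines log2 ratios of 1 and -1; 600 points lie below the solid line, 124 of them among the 131 points of up to 35% GC.

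Differences were also present where counts were high and sequences long, where counting error is small. The 64 AT-rich unigenes with at least 1000 reads had a median log2 ratio of -2.20, 51 of them were called lower and none higher. The 348 with 100 to 999 reads had a median of -1.53 with 228 called lower and 16 higher, and the 311 with 50 to 99 reads had -1.28 with 152 lower and 26 higher. A call is reached more easily with more reads, and the shares called among all unigenes of these classes of reads were not computed. The classes also differed in GC content, since 36 of the 64, 59 of the 348 and 37 of the 311 had up to 35% GC. From most to fewest reads, the medians were -2.75, -2.68 and -1.57 up to 35% GC. They were -1.45, -1.37 and -1.15 above 35% to 40% GC. The part of GC content, and of summed reads that were mostly dark reads, in this order was not tested. By length, the 48 AT-rich unigenes of at least 1000 bp had a median of -2.32, with 44 called lower and 1 higher. All 22 of them with up to 35% GC were called lower, and so were all 12 AT-rich unigenes of at least 2000 bp. The 180 members of 200 to 299 bp had a median of -1.18, with 93 called lower and 11 higher. Unigenes above 40% GC did not follow the same order, since their median was -0.20 at 200 to 299 bp, 0.22 at 500 to 999 bp and 0.16 at 1000 bp or more. Of these unigenes, 22.4% were called lower and 23.1% higher at 200 to 299 bp, and 13.3% and 32.2% at 1000 bp or more.

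Among the longest sequences, Unigene10749 (4015 bp, 31.0% GC), annotated as a protein of the large ribosomal subunit, had 2472 reads in BL and 6822 in the dark, a log2 ratio of -1.53. Unigene26750 (3868 bp, 39.7% GC, no annotation at hand) had 544 reads in BL and 2384 in the dark, with -2.20. AT-rich unigenes were in general short. Their median length was 409 bp, against 603 bp above 40% GC, and 467 of them (64.6%) were under 500 bp. Several short unigenes may be pieces of 1 transcript, in which case their values are not separate measurements.

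**Figure D3:**
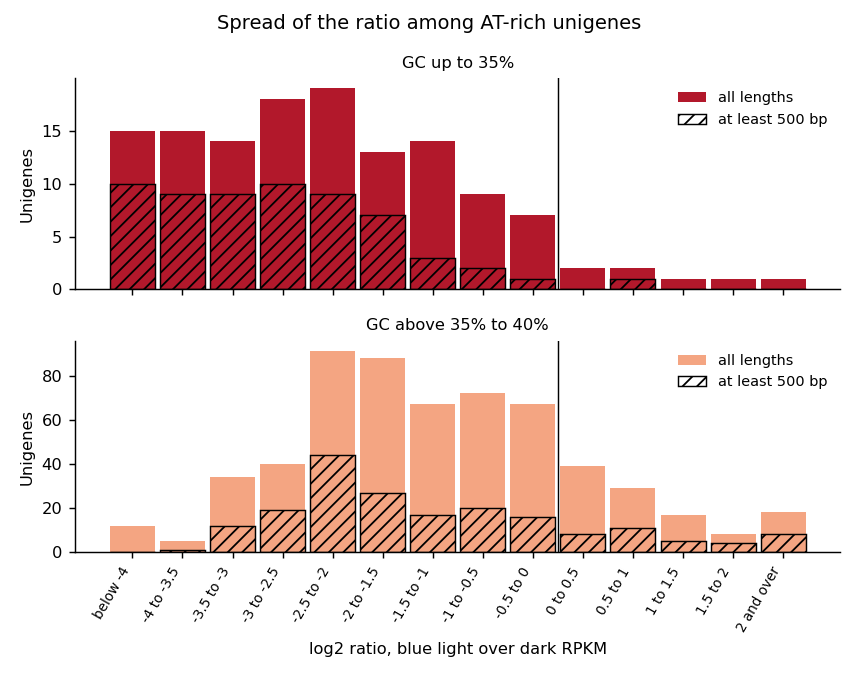
Number of AT-rich unigenes (y axis) by log2 ratio of BL over dark RPKM in steps of 0.5 (x axis), for up to 35% GC (upper panel) and above 35% to 40% GC (lower panel); hatched bars are unigenes of at least 500 bp and the vertical line marks equal RPKM. In the lower panel the tallest bar, from -2.5 to -2, holds 91 of 587 unigenes, and the bars stay at 67 to 88 up to 0.

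At least 10 reads in both libraries at once were reached by 643 members, and the 5 lowest ratios among these were found at low GC. The lowest was that of Unigene27913 (787 bp, 27.3% GC), with 38 reads in BL and 889 in the dark and a log2 ratio of -4.61 (-5.12 to -4.15). Unigene6440 (1104 bp, 32.6% GC) had the same log2 ratio of -4.61 at higher counts, 285 in BL and 6652 in the dark. Unigene33335 had 10 reads in BL and 190 in the dark, Unigene24302 had 17 and 321, and Unigene22191 had 36 and 651. All 5 had up to 35% GC, and Unigene24302 had the lowest GC content of all members, 23.6%. The next lowest in GC, Unigene38468 (25.3%) and Unigene40198 (25.3%), had 82 and 2 reads in BL against 196 and 105 in the dark, with log2 ratios of -1.32 and -5.78, and both were called lower. Members with fewer than 10 reads in BL reached lower ratios, also near 39% GC. Chosen after their values were seen, Unigene35654 (38.9% GC) had 2 reads in BL and 290 in the dark, a log2 ratio of -7.25 (-10.30 to -5.38), and Unigene38503 (38.8% GC) had 2 and 195, with -6.67 (-9.73 to -4.80).

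The 5 highest ratios among those 643 members were found near 40% GC and at low counts. Unigene42128 (631 bp, 38.03% GC) had 143 reads in BL and 24 in the dark, a log2 ratio of 2.51 (1.88 to 3.20). Unigene31759 had 61 reads in BL and 13 in the dark, Unigene13652 had 69 and 15, Unigene60468 had 50 and 11, and Unigene8526 had 48 and 11. These 4 ratios lay between 2.06 and 2.16 on the log2 scale, and all 5 unigenes had above 38% to 40% GC. Higher ratios rested on fewer than 10 dark reads, such as that of Unigene49076 (39.4% GC, chosen after its values were seen), with 124 reads in BL and 9 in the dark and a log2 ratio of 3.72 (2.75 to 4.88). None of the 42 AT-rich unigenes called higher had 1000 reads or more.

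A few members had no read in 1 library. In BL these were Unigene34486, Unigene41714 and Unigene34489, with 99, 57 and 51 reads in the dark. With 3 reads put in place of a count of 0, their RPKM was 34.5-fold, 19.9-fold and 17.8-fold lower in BL. The exact 95% interval, which is wider, only bounds the differences at 27.6-fold, 15.7-fold and 13.9-fold or more. Unigene69126 had 55 reads and Unigene53407 had 53 reads in BL and none in the dark. With the same floor this gave 17.5-fold and 16.9-fold higher RPKM in BL, or at least 13.8-fold and 13.3-fold by the exact interval. A unigene with no read in 1 library could be a member only with at least 50 reads in the other. The large size of these differences was therefore set in advance by the threshold.

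Annotation was at hand for a part of the unigenes, 1998 entries in the order of their identifiers, and 76 AT-rich unigenes fell in that range of identifiers. Of these, 29 had an annotation. The annotated share was 12 of 17 among those with up to 35% GC and 17 of 59 above 35% to 40% GC, while 1788 of 4607 unigenes above 40% GC in the same range were annotated (38.8%). Keywords of plastids, mitochondria, photosynthesis and respiration matched 10 of the 29 names (34.5%), against 34 of the 1788 above 40% GC (1.90%). Keywords of translation matched 9 of 29 (31.0%), against 41 of 1788 (2.29%). The 2 lists overlapped and together matched 14 of the 29. Names of 30S and 50S ribosomal proteins, without a word for an organelle, counted in both lists. Such names were borne by 2 and 3 of the 29 members, and by 2 and 5 of the 1788 unigenes above 40% GC. No annotated member matched the keywords of mobile elements and viruses, of the cell wall, of kinases and phosphatases or of protein folding and turnover, although 1 was named a GrpE-like protein.

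Nearly all annotated members had the lower RPKM in BL. Of the 29, 28 had the lower RPKM in BL, 24 were called lower and none higher, and the median log2 ratio was -2.02. The 47 members of the same range without annotation had a median of -0.40, with 16 called lower and 2 higher. Within the class above 35% to 40% GC, 14 of 17 annotated and 15 of 42 not annotated members were called lower, with medians of -1.89 and -0.43. Above 40% GC the order was the opposite, since annotated unigenes had a median of 0.61 and those without annotation -0.44. There, 8.67% of the annotated unigenes were called lower and 38.1% higher, and 26.2% and 12.1% of those without annotation. These 2 sets above 40% GC also differed in GC content, with medians of 57.5% for annotated unigenes and 49.2% for those without annotation. The part of GC content in their contrast was not tested. Annotated AT-rich unigenes were longer, with a median of 682 bp against 359 bp without annotation, and the part of length in this difference was not tested.

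Both members named for the transcription apparatus were called lower. The alpha chain is the subunit on which a bacterial-type RNA polymerase assembles. Unigene10115, with this annotation, had 254 RPKM in BL and 1701 RPKM in the dark, a log2 ratio of -2.74 (-2.79 to -2.69). Unigene1347 (1129 bp, 28.8% GC), annotated as RNA polymerase without a subunit, had 73 reads in BL and 774 in the dark, a log2 ratio of -3.47 (-3.84 to -3.12). The 4 annotated RNA polymerase unigenes above 40% GC had a median of 0.79 and ranged from -1.09 to 2.29, and 2 of them were called higher and 1 lower.

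Ribosomal proteins made up the largest group, with 8 members, of which 6 were called lower and none higher. The small subunit decodes the messenger RNA, and its annotated members, Unigene1277 (92 reads in BL, 375 in the dark) and Unigene10012 (44 and 171), had log2 ratios of -2.09 and -2.02. The large subunit joins amino acids, and its members differed widely. Unigene11699 had 1122 reads in BL and 9079 in the dark, a log2 ratio of -3.08, and Unigene10749 had the ratio of -1.53 given above. Unigene11781 (560 bp, 33.9% GC), which bears the same annotation as Unigene11699, had 386 reads in BL and 193 in the dark. Its log2 ratio of 0.93 (0.68 to 1.19) was the single positive one among the 29, and with an FDR of 3.34e-13 by the Audic-Claverie test with Benjamini-Hochberg adjustment it missed the call only by the size of its ratio. Of the unigenes named as ribosomal proteins without a subunit, Unigene1142 (1733 reads in BL, 8099 in the dark) and Unigene10477 (46 and 202) were called lower, with -2.29 and -2.20. Unigene10240 had nearly equal counts, 92 in BL and 91 in the dark, with a log2 ratio of -0.05 (-0.48 to 0.38).

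The same names above 40% GC gave mixed values. The 12 ribosomal protein unigenes there had a median log2 ratio of 0.18, with 4 called lower and 1 higher. The 2 named as 30S proteins, with 40.83% and 41.99% GC, lay just above the limit and were both called lower, with 267 reads in BL and 1137 in the dark together. EF-Tu, which brings aminoacyl-tRNA to the ribosome, was annotated for Unigene10016 (270 bp, 35.2% GC), which had 495 reads in BL and 1046 in the dark, a log2 ratio of -1.14 (-1.30 to -0.99). The 3 other elongation factors had 56.3% to 60.6% GC and ranged from -1.38 to 1.13.

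Of the members named for pigment synthesis, cytochrome assembly, ATP synthesis and the chloroplast, all but Unigene12063 were called lower. The magnesium-protoporphyrin cyclase, which closes a ring on the way to chlorophyll, was annotated for Unigene10597 (684 bp, 28.5% GC). It had 54 reads in BL and 583 in the dark, and its log2 ratio of -3.50 (-3.93 to -3.09) was the lowest of the 29. Unigene12063, whose annotation reads photochlorophyllide reductase subunit, had 70 and 93 reads and was not called, at -0.48 (-0.94 to -0.01). The 3 unigenes of that name at 42.5% to 43.2% GC had 120 reads in BL and 347 in the dark together, and 2 of them were called lower. The cytochrome c biogenesis protein, which takes part in attaching heme to cytochromes, was annotated for Unigene11010 (2395 bp, 29.5% GC), which had 631 reads in BL and 2486 in the dark, a log2 ratio of -2.04. Unigene11319 (1618 bp, 30.6% GC), an ATP synthase subunit by name, had 270 reads in BL and 635 in the dark, with -1.30 (-1.51 to -1.09). Both ATP synthase unigenes above 40% GC had positive log2 ratios, 0.65 and 1.80. Unigene10192, named a conserved chloroplast protein, had 22 reads in BL and 112 in the dark, with -2.41.

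The only member named for the respiratory NADH dehydrogenase, which passes electrons from NADH into the respiratory chain, was Unigene10553 (563 bp, 35.2% GC). It had 21 reads in BL and 33 in the dark, and its interval of -1.58 to 0.12 on the log2 scale held 0. Members with other names were lower in BL as well. They included Unigene13318, a GrpE-like protein (GrpE releases nucleotide from Hsp70 chaperones in bacteria), with 28 reads in BL and 281 in the dark and -3.39, Unigene1328, a carboxylase, with 39 and 183 and -2.30, and Unigene11181, an aldolase, with 144 and 554 and -2.01. Unigene10852 and Unigene10162, without an assigned function, had -1.43 and -1.89. The other 7 annotated members had 58 to 142 reads and log2 ratios of -2.67 to -0.47, and 6 of them were called lower.

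**Figure D4:**
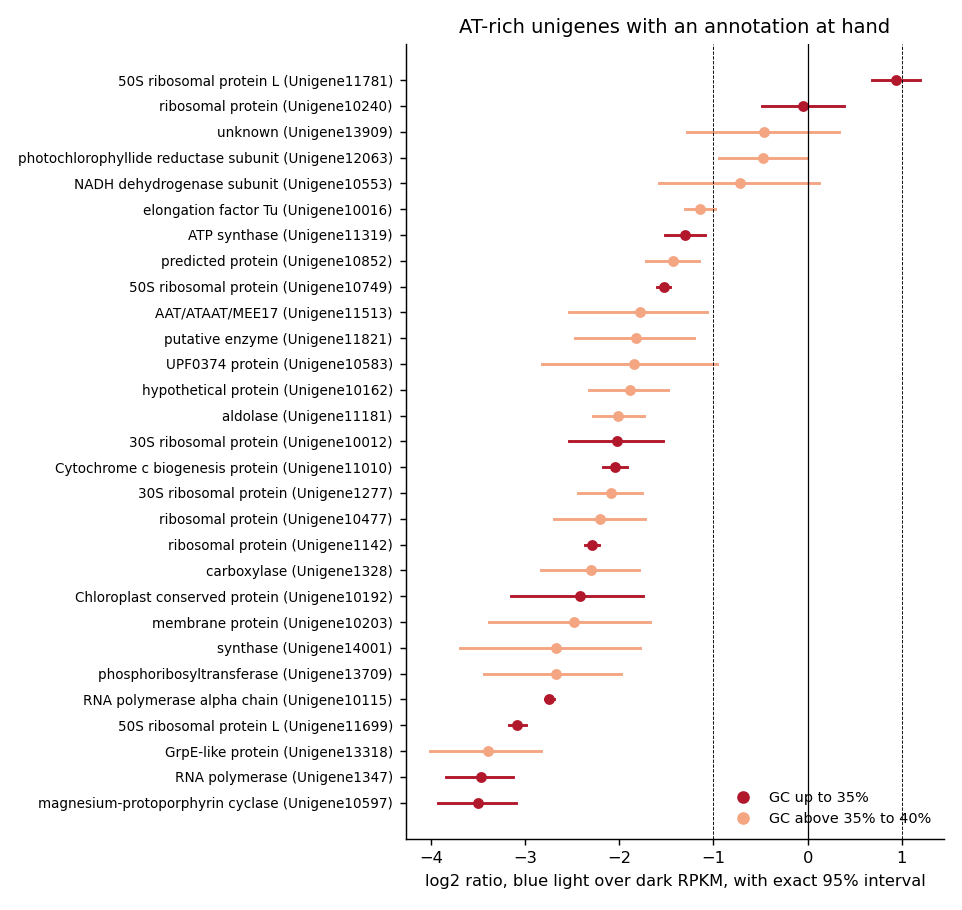
Log2 ratio of BL over dark RPKM (x axis) with its exact 95% interval for the 29 annotated AT-rich unigenes (y axis, name as annotated); dashed lines mark log2 ratios of -1 and 1. Unigene11781 lies to the right of 0, and Unigene10597 is lowest at -3.50.

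The reads in BL also covered less of the AT-rich sequences. The deposited coverage, read from its header as the percentage of the unigene's length that reads of the library cover, had a median of 91.3% in BL and 97.5% in the dark. It was lower in BL for 547 of the 718 unigenes (76.2%), against 40.6% of those above 40% GC. Coverage under 80% was found for 154 of these members in BL and for 31 in the dark. Fewer reads leave more gaps, so each member was set beside unigenes above 40% GC of the same class of length and of reads per kb in the same library. Against the median of its class, the median AT-rich unigene had 1.12 percentage points less coverage in BL and 0.42 points more in the dark. In BL the median difference was -1.80 points up to 30% GC, -0.57 up to 35% and -1.31 above 35% to 40%. It thus had no steady order by GC content. More than 10 points under the class median were 133 of 709 members in BL and 43 of 712 in the dark.

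Gaps were present even at high depth. Of the 85 AT-rich unigenes with at least 500 reads per kb in BL, 26 had less than 95% of their length covered, against 16 of 155 in the dark. The 85 and the 155 were each chosen by depth in their own library, so the sets and their depths differ. The same share was not computed for unigenes that are not AT-rich, so whether these gaps are particular to AT-rich sequences was not tested. As examples chosen after their values were seen, Unigene32444 (382 bp) had 252 reads in BL and 334 in the dark, and 56.3% of its length was covered in BL against 98.7% in the dark. Unigene20477 (663 bp, 30.02% GC) had 559 reads in BL over 79.9% of its length and 6133 in the dark over 98.5%. The opposite was found for Unigene47337 (360 bp, 33.6% GC), which 522 reads covered to 98.6% in BL and 4618 reads to 89.4% in the dark. Unigene29737 (251 bp) had nearly equal reads, 1249 in BL and 1174 in the dark, and was covered to 83.7% and 84.5%.

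**Figure D5:**
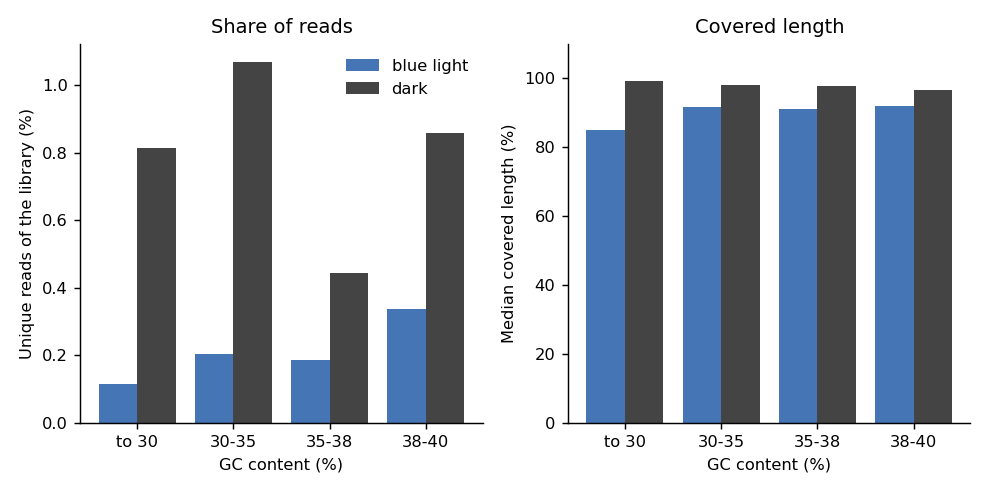
Share of all uniquely aligned reads of a library (left, %) and median covered length (right, %) for AT-rich unigenes by class of GC content (x axis, %), in BL (blue) and in the dark (grey). Up to 30% GC the share is 0.116% in BL and 0.814% in the dark, and the median coverage is 85.0% and 99.2%. The medians of coverage are not matched for reads.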

How the data were processed

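The authors removed adaptors and low-quality reads, used SOAPdenovo for the assembly, joined the unigene sets into 1 and aligned the reads to it. The aligner is not given in the sources used here. The deposited counts are whole numbers of uniquely aligned reads per unigene, without normalization. The deposited percent columns hold covered length, GC content and unknown bases. A unigene absent from a library's list was set to 0 reads. In total 61001 unigenes were in both lists, with equal length, GC and unknown bases, and 20 AT-rich unigenes held unknown bases, up to 11.6%.

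RPKM used the uniquely aligned reads of each library as total. The Audic-Claverie test was 2-sided and counted the observed value in each tail. Log2 ratios carry exact Clopper-Pearson 95% intervals, and a count of 0 was given a floor of 3 reads. The test was checked on simulated counts with 200 changed unigenes. These counts held counting error only, so the check could not cover spread between libraries or differences in base composition. Alternatives were Benjamini-Yekutieli adjustment, Fisher's exact test, edgeR's exact test with an assumed spread, other scalings, limits of reads, length, GC and ratio, and pseudocounts. Python 3.11.15, scipy 1.17.1, R 4.3.3 and edgeR 4.0.16 were used.

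Unigenes were named if they were among the 10 most read, the 5 highest or 5 lowest ratios with at least 10 reads in each library, had no read in 1 library, were annotated in the organelle or translation keywords or with at least 200 reads, were the 3 lowest in GC or the 3 longest, or were the 3 nearest to each side of 35% and 40% GC. Covered length was compared only in classes with at least 20 unigenes above 40% GC. The members and lists were chosen with earlier results of these data known. Sequences, pathways and quantitative PCR were not analysed here.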

Additional observations from a re-analysis of the deposited data

How the results depend on the processing

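No result for the AT-rich unigenes as a group changed sign under any alternative tried, but their size did. AT-rich unigenes called higher and lower in BL, 42 and 431 by the main test, were 15 and 256 with an assumed coefficient of variation of 0.2, 2 and 12 with 0.4, 21 and 266 where the log2 ratio had to reach 2 in size, 17 and 177 with at least 500 bp, 105 and 675 with at least 10 reads, 7 and 173 with at least 200 reads, 12 and 222 with a limit of 38% GC, and 108 and 767 with 42% GC. With median-of-ratios size factors 22 were called higher and 496 lower. Fisher's exact test, Benjamini-Yekutieli adjustment, TMM factors, totals over unigenes above 40% GC and GC among known bases kept both counts within 1.5 times.

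The median log2 ratio, -1.53 for all AT-rich unigenes, -2.41 up to 35% GC and -1.30 above that, was -1.82, -2.70 and -1.59 with TMM factors, -1.95, -2.83 and -1.72 with size factors, -1.92, -2.97 and -1.66 with at least 500 bp, and -1.11, -2.01 and -0.97 with at least 10 reads. With at least 200 reads the first and second were -1.66 and -2.71, and the overall median was -1.79 with a limit of 38% GC and -1.17 with 42%. The share of reads, 0.841% in BL and 3.18% in the dark, was 0.949% and 3.35% with at least 10 reads, 0.713% and 2.91% with at least 200, 0.504% and 2.32% with a limit of 38% GC, 1.64% and 4.65% with 42%, and 0.655% and 2.03% without the 10 most-read members.

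Of 54 named unigenes with reads in both libraries, Unigene22840, just outside the limit, turned from 0.17 to -0.11 with TMM factors and -0.25 with size factors, and Unigene19694 lost its call with size factors at 0.97. Under TMM factors, size factors and a pseudocount of 1 RPKM, the alternatives run for single unigenes, the others kept their direction, and kept their call as far as library scaling and the size of the ratio decide it. The tests with an assumed coefficient of variation were not followed for single unigenes, and at 0.4 no more than 14 AT-rich unigenes were called. No paired analysis was possible because each treatment has 1 library. For the same reason the spread between cultures is unknown, and the calls rest on counting error. The median member had 39 reads in BL and 81 in the dark, so that intervals of single short unigenes are wide. The annotation covers part of the identifiers.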
